A study of Mus musculus with 8 samples.

Results

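The genes that cut, protect and crosslink the extracellular matrix were followed in mouse hepatic stellate cells (HSCs) and macrophages given auranofin, an oral gold compound used against rheumatoid arthritis. Members were taken by gene symbol alone, as every matrix metalloproteinase (Mmp), tissue inhibitor of metalloproteinases (Timp), Adam, Adamts, Adamts-like (Adamtsl), lysyl oxidase (Lox, Loxl), lysyl hydroxylase (Plod) and prolyl 4-hydroxylase alpha subunit (P4ha) gene in the 2 deposited tables. They numbered 91, of which 86 were among the 18645 genes of the HSC table and 81 among the 17408 genes of the macrophage table. Both tables held 76 of them. A mean of at least 1 FPKM (fragments scaled to transcript length and to library size) over the 4 libraries of a table was required for testing. This was met by 51 members in HSCs and by 22 in macrophages, with 21 in both, and 39 members were tested in neither table, being below it or not listed.

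The 4 groups had 2 libraries each, all from C57BL/6 mice with no genetic change named. Primary HSCs, isolated from liver on a density gradient and activated by culture on plastic with serum, were kept for 12 h with vehicle or with auranofin at 0.03 µM. Bone marrow-derived macrophages (BMDM), grown with M-CSF for 7 days from the marrow of male mice aged 8 weeks, were all primed with 100 ng/mL LPS for 4 h, stimulated with 1 mM ATP, and given vehicle or auranofin for 1 h. The BMDM dose was 0.1 µM by the sample labels and 0.3 µM by the study's legend. The sources do not say whether replicates came from separate animals, so the tests measure the spread between these libraries, which may be technical.

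Fibrillar matrix is built and removed by these families in sequence. Prolyl 4-hydroxylases stabilise the collagen triple helix and lysyl hydroxylases prepare it for crosslinking inside the cell, and lysyl oxidases then crosslink collagen and elastin outside it. MMPs cleave the collagens and other matrix proteins, ADAMTS enzymes cleave proteoglycans and procollagens, ADAMs mostly shed proteins from the cell surface, and TIMPs block MMPs and several ADAM and ADAMTS enzymes. In liver fibrosis, activated HSCs are known as a main source of TIMP1 and of the lysyl oxidases, while macrophages supply several of the MMPs that break scar matrix down.

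Depth was estimated from the steps that single fragments leave in low FPKM values, at 29800000 to 39400000 fragments per HSC library and 27500000 to 34900000 per BMDM library. The HSC libraries carried genes of activated stellate cells, with Acta2 at 737 to 965 FPKM and Col1a1 at 927 to 1075 FPKM. The other stellate markers ranged widely. Tagln was at 715 to 872 FPKM, Dcn at 324 to 352 FPKM and Des at 43.4 to 55.1 FPKM. The lowest were Lrat at 1.70 to 2.85 FPKM, Reln at 3.32 to 3.85 FPKM and Lhx2 at 2.50 to 3.09 FPKM. None of the 14 stellate markers was at 0 in every library. The HSC libraries also carried macrophage transcripts. The 16 macrophage markers summed to 10486 and 10651 FPKM in the vehicle and 10491 and 10424 FPKM in the auranofin libraries, and Lyz2 alone stood at 5379 to 5554 FPKM. The 10 endothelial markers summed to 306 to 318 FPKM, and the 7 hepatocyte markers in the table to 2.03 to 3.60 FPKM. The 8 neutrophil markers summed to 6.62 to 19.2 FPKM in 3 HSC libraries and to 82.4 FPKM in auranofin replicate 2. In BMDM, the macrophage markers summed to 9791 to 10806 FPKM. Auranofin replicate 1 of the BMDM stood apart from the other 3 libraries, since 22.9% of all BMDM genes tested lay at least 1.5-fold from the vehicle mean in that library and not in replicate 2.

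In HSCs, 4 members were lower and 1 was higher with auranofin at an adjusted p under 0.05 (limma on log2(FPKM + 1), Benjamini-Hochberg over all 12149 genes tested). Adamts1, Adamts5 and Adamts9, which cleave versican and aggrecan, fell together with Adam33, a membrane-bound metalloprotease of mesenchymal cells. Mmp19, a secreted protease with basement membrane substrates, rose. The 4 that fell were 7.84% of the 51 members tested, against 1.09% of all genes tested that were called lower, and the 1 that rose was 1.96%, against 1.24% called higher. On the log2(FPKM + 1) scale no member changed by at least 1.5-fold with an unadjusted p under 0.05, which 0.576% of all genes did, although the ratio of the mean FPKM values of Adamts5 was 1.53. At an unadjusted p under 0.05 alone, 17 members (33.3%) were lower against 9.22% of all genes, and 4 members were higher against 8.57% of all genes. Both auranofin libraries lay below both vehicle libraries for 28 members, a pattern found in 23.9% of all genes, and above both for 8 members, a pattern found in 26.2%. With no threshold, 33 of the 51 members (64.7%) had lower means, against 47.8% of all genes. The median log2 fold change over the 51 members was -0.079, beside 0.0049 over all genes tested. With 2 libraries in each group, the smallest two-sided p that an exact permutation test can give for a single gene is 0.333. All 5 calls were lost when genes of any level were tested, at limma adjusted p-values of 0.0608 to 0.138. Of all 18645 genes tested in that way, 49 were called, against 283 of 12149 in the main fit. The 5 calls were also lost when limma did not moderate the spread across genes, at adjusted p-values of 0.29 to 0.355. In that setting 0 of all 12149 genes were called, so it does not set the members apart.

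**Figure D1:**
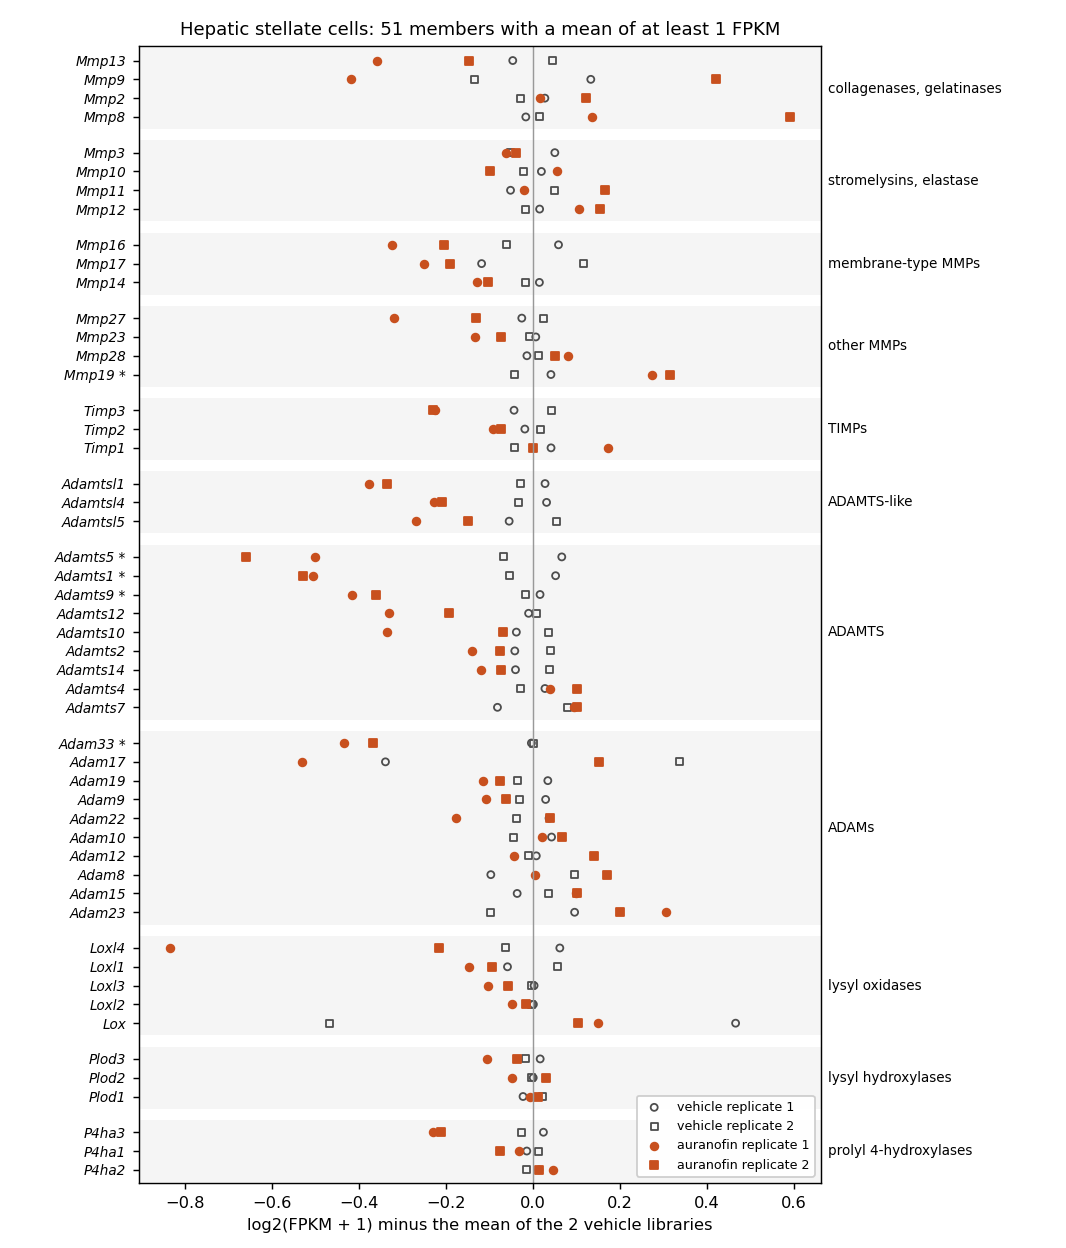
Difference of each HSC library from the mean of the 2 vehicle libraries on the log2(FPKM + 1) scale for the 51 members tested, grouped by role, with vehicle libraries open, auranofin libraries filled, and * for an adjusted p under 0.05. Both auranofin libraries lie well below vehicle for Adamts5 and Adamts1, auranofin replicate 1 of Loxl4 is the lowest single value, Mmp19 is the raised member that was called, and the open symbols of Lox and Adam17 lie far apart.

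The ADAMTS proteases held 3 of the 4 falls. Adamts1 was at 18.8 and 17.4 FPKM in the vehicle libraries against 12.4 and 12.2 FPKM in the auranofin libraries. The auranofin mean was 31.8% lower, and the groups did not overlap. The log2 fold change was -0.52 ± 0.051 (SE, n = 2 per group, limma adjusted p = 0.0113), and the 4 values stood for an estimated 1810 to 2880 fragments. Adamts5, the main aggrecan-cleaving enzyme of mouse cartilage, was at 21.2 and 19.3 FPKM without and 14.02 and 12.46 FPKM with auranofin. Its mean was 34.6% lower, again with no overlap, for a log2 fold change of -0.58 ± 0.073 (SE, n = 2 per group, limma adjusted p = 0.0227). Adamts9, a large protease that also serves in secretion from the endoplasmic reticulum, was at 9.21 and 8.97 FPKM in vehicle libraries, and 6.57 and 6.87 FPKM after auranofin. The fall came to 26.1%, with a log2 fold change of -0.39 ± 0.049 (SE, n = 2 per group, limma adjusted p = 0.0236). Adamts1 and Adamts5 remained called with any 1 of the 4 libraries left out, and Adamts5 was not called by limma without a variance trend, at an adjusted p of 0.0582. Adamts9 was not called without auranofin replicate 1, at an adjusted p of 0.0743 from limma.

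Adamts1 and Adamts5 are neighbours on chromosome 16 in GRCm38, at 85793827-85803113 and 85858157-85901125. They are 55.0 kb apart with 1 other RefSeq gene between them. Adamts9 lies on chromosome 6, at 92772699-92944450, where it overlaps 4 other RefSeq genes, and the strand setting of the counting is not given in the sources used here. The 250 bases before an annotated start of Adamts1 and of Adamts9 are shown because both genes fell together. The Adamts9 window belongs to a start inside the span given for that gene. They come from RefSeq (GRCm38.p6), 5′ to 3′ on the minus strand, from chr16:85803114-85803363 and chr6:92943535-92943784.
Adamts1: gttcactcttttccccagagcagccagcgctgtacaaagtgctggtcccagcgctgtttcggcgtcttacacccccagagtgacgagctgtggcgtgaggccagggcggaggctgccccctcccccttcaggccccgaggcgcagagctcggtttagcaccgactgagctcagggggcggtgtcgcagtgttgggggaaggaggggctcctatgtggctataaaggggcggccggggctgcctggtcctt
Adamts9: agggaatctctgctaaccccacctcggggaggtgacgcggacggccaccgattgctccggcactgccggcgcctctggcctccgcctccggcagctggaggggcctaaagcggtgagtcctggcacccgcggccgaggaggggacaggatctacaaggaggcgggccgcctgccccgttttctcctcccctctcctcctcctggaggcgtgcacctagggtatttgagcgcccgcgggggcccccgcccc
The AP-1 element TGACTCA and the core of the antioxidant response element, TGACNNNGC, were searched on both strands and neither was in these windows, so no capitals appear. Among the 27025 genes with such a window, 5.16% held the first and 11.5% the second in at least 1 window, and among the 55 members with a window 7 held the first and 7 the second. The 7 with TGACTCA were Mmp1b, Mmp3, Mmp10, Mmp12, Mmp13, Adam19 and Adam29. Promoters of Adamts5, Adam33, Mmp19, Lox and Adamts4 are not shown.

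The other ADAMTS members tested did not pass. Adamts12 was at 19.1 and 19.4 FPKM in the vehicle pair and 15.1 and 16.7 FPKM in the auranofin pair, with a limma adjusted p of 0.0845. The procollagen N-proteinase genes showed small differences, Adamts2 with a log2 fold change of -0.11 and Adamts14 with -0.095. Adamts4 and Adamts7 were at log2 fold changes of 0.071 and 0.099. In all, 7 of the 9 ADAMTS members tested had lower means, for a median of -0.20. The ADAMTS-like genes, which lack the protease domain and bind microfibrils, had 3 members tested and 0 called. Their log2 fold changes were close to one another, from -0.35 for Adamtsl1 to -0.21 for Adamtsl5.

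Adam33 was a low gene, at 3.49 and 3.51 FPKM in the vehicle libraries against 2.33 and 2.49 FPKM in the auranofin libraries. The mean was 31.1% lower without overlap, and the log2 fold change was -0.40 ± 0.064 (SE, n = 2 per group, limma adjusted p = 0.0429). The gene lies on chromosome 2, at 131050819-131063814, and overlaps no other RefSeq gene. This call was lost with any 1 of the 4 libraries left out, at adjusted p-values of 0.0598 to 0.139 from limma. Among the other 9 ADAMs tested, 4 had lower means and none was called. Adam8, a leukocyte sheddase and the most abundant ADAM, was at 133 and 152 FPKM without and 143 and 160 FPKM with auranofin, so the groups overlapped. Adam10, a sheddase of Notch receptors, was at 45.8 to 49.6 FPKM in the 4 libraries. Adam23, a non-catalytic member, was at 3.16 and 2.64 FPKM in vehicle libraries, and 3.81 and 3.47 FPKM after auranofin, with a limma adjusted p of 0.218.

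Adam17, the TNF sheddase, divided by replicate number and not by treatment. It was at 24.8 and 40.2 FPKM in the vehicle pair and 21.5 and 35.2 FPKM in the auranofin pair. Replicate 1 was the lower library in both groups, the log2 fold change was -0.19 with a 95% interval of -0.89 to 0.52, and the gene overlaps Iah1 and Gm22766 in the RefSeq annotation.

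**Figure D2:**
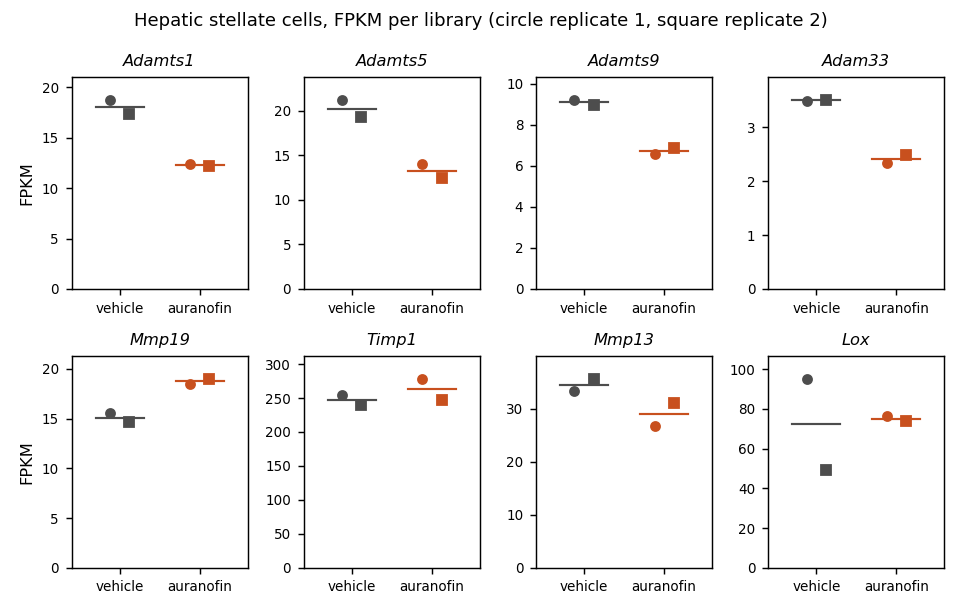
FPKM per HSC library for the 5 members called and for Timp1, Mmp13 and Lox, with replicate 1 as circles, replicate 2 as squares and a line at the mean of each group. The 5 called members separate by group, Timp1 and Lox overlap, and the vehicle libraries of Lox differ from each other by more than the groups do.

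Of the 15 MMPs tested in HSCs, Mmp19 was the one that passed. It was at 15.6 and 14.6 FPKM in the vehicle libraries against 18.5 and 19.0 FPKM in the auranofin libraries, without overlap. The log2 fold change was 0.30 ± 0.048 (SE, n = 2 per group, limma adjusted p = 0.0439). The call held without vehicle replicate 1 and was lost without each of the other 3 libraries, at limma adjusted p-values of 0.0647 to 0.115, and with quantile normalization, at 0.0511. The gene lies on chromosome 10, at 128790910-128800827, where it shares part of its locus with Tmem198b.

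The collagenases and gelatinases, which open and degrade fibrillar and denatured collagen, were led by Mmp2. Mmp2, or gelatinase A, was at 41.4 and 39.8 FPKM without and 41.0 and 44.2 FPKM with auranofin, which overlapped. Mmp13, the main interstitial collagenase of rodents, was at 33.4 and 35.6 FPKM in vehicle libraries, and 26.7 and 31.1 FPKM after auranofin. Both auranofin values were the lower ones, but the log2 fold change of -0.25 ± 0.076 (SE, n = 2 per group) did not pass, at a limma adjusted p of 0.176. Mmp8, the neutrophil collagenase, was at 1.91 and 1.97 FPKM in the vehicle pair and 2.23 and 3.43 FPKM in the auranofin pair. Mmp9, or gelatinase B, was at 3.12 and 2.43 FPKM in the vehicle libraries against 1.81 and 4.03 FPKM in the auranofin libraries. For both genes the highest value was in auranofin replicate 2, the library with 82.4 FPKM of neutrophil markers, including S100a9 at 44.7 FPKM against 2.23 to 10.8 FPKM in the other 3 libraries. Ly6g, a defining neutrophil marker, was at 0.165 FPKM in that library and at 0 in the other 3. The log2 fold change of Mmp8 was 0.36 with all libraries, 0.14 without auranofin replicate 2 and 0.59 without replicate 1, and it was called by limma in the last of these. The part of the neutrophil transcripts in these values was not tested.

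The promoter of Mmp13 is shown for its AP-1 element, which is in capitals 35 bases before the start. The window is chr9:7272264-7272513 on the plus strand (RefSeq, GRCm38.p6).
Mmp13: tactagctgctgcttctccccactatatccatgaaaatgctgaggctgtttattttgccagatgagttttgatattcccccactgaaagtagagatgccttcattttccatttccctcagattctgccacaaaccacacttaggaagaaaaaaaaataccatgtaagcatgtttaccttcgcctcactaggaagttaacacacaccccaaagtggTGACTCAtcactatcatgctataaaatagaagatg
Mmp13 opens a cluster of 7 members on chromosome 9, from 7272514 to 7581885, followed by Mmp12, Mmp1b, Mmp3, Mmp10, Mmp8 and Mmp27. In HSCs the cluster held differences in both directions. The log2 fold changes in that order were -0.25 for Mmp13, 0.13 for Mmp12, -0.050 for Mmp3, -0.021 for Mmp10, 0.36 for Mmp8 and -0.22 for Mmp27, and none of these was called, while Mmp1b was below the level for testing.

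Mmp12, the macrophage elastase, was the most abundant member in the HSC libraries. It was at 901 and 881 FPKM without and 960 and 993 FPKM with auranofin. Both auranofin values were higher, with a log2 fold change of 0.13 ± 0.035 (SE, n = 2 per group) and a limma adjusted p of 0.142, which missed the threshold. The summed macrophage markers moved by little between the groups, as given above. Clec4f, a Kupffer cell lectin, was called higher at 58.6 and 59.2 FPKM in vehicle libraries, and 73.5 and 69.1 FPKM after auranofin. It was the 1 called by limma of 15 markers tested, beside 1.24% of all genes called higher. Of the 15, 10 had lower means. At an unadjusted p under 0.05 by limma 2 were higher and 3 lower, against 8.57% and 9.22% of all genes. The share of Mmp12 that came from macrophages was not tested. The stromelysins Mmp3, Mmp10 and Mmp11 had log2 fold changes of -0.050 to 0.074.

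All 3 membrane-type MMPs tested had lower means. Mmp14, the activator of pro-MMP2 on the cell surface, was at 169 and 165 FPKM in the vehicle pair and 153 and 155 FPKM in the auranofin pair. The groups did not overlap, but the difference of 7.69% did not pass at a limma adjusted p of 0.158. Mmp16 and Mmp17 were under 5 FPKM, with log2 fold changes of -0.26 and -0.22, and neither was called. Mmp23, an MMP with a short transmembrane anchor, was at 34.8 and 34.5 FPKM in the vehicle libraries against 31.5 and 32.9 FPKM in the auranofin libraries, with a limma adjusted p of 0.26.

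The inhibitors were abundant and none was called. Timp1 was at 254 and 240 FPKM without and 279 and 247 FPKM with auranofin, and these ranges overlapped. Its log2 fold change was 0.087 with a 95% interval of -0.07 to 0.25. Timp2, which also helps MMP14 to activate pro-MMP2, was at 167 and 172 FPKM in vehicle libraries, and 159 and 161 FPKM after auranofin. Timp3, the matrix-bound inhibitor of ADAMTS4, ADAMTS5 and ADAM17, was at 270 and 286 FPKM in the vehicle pair and 238 and 237 FPKM in the auranofin pair. Timp3 had the smallest adjusted p of the 3, at 0.0539 from limma, with a log2 fold change of -0.23 ± 0.039 (SE, n = 2 per group). It was called by limma without vehicle replicate 1, at an adjusted p of 0.0157, with a mean of at least 5 FPKM, at 0.0418, and with quantile normalization, at 0.0381. Its other adjusted p-values with a library left out were 0.0903 to 0.174. Timp4 was below the level for testing.

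Among the crosslinkers, Loxl2 was the most abundant, at 178 to 184 FPKM in the 4 libraries. Lox itself was at 95.1 and 49.3 FPKM in the vehicle libraries against 76.3 and 73.7 FPKM in the auranofin libraries. The 2 vehicle libraries lay on both sides of the auranofin pair, so the direction depended on which of them was used, with a log2 fold change of 0.59 without vehicle replicate 1 and -0.34 without vehicle replicate 2, both called by limma. With all 4 libraries it was 0.13 with a 95% interval of -0.56 to 0.81. Serpinh1, the collagen chaperone HSP47, was also lowest in vehicle replicate 2, at 401 FPKM against 591 to 633 FPKM in the other 3. Loxl4 was at 13.3 and 12.1 FPKM without and 6.67 and 10.8 FPKM with auranofin, lower by unequal amounts in the 2 auranofin libraries, with a limma adjusted p of 0.241. Without auranofin replicate 2 it was called, at a log2 fold change of -0.83. Loxl1 and Loxl3 had log2 fold changes of -0.12 and -0.079.

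None of the 6 intracellular collagen modifiers was called. Plod1, Plod2 and Plod3, at 52.01 to 60.35 FPKM in all 4 libraries, had log2 fold changes of 0.0038, -0.0087 and -0.070. P4ha1, the main catalytic subunit, was at 56.3 and 57.3 FPKM in vehicle libraries, and 55.59 and 53.85 FPKM after auranofin. P4ha3, a minor subunit, was at 8.39 and 8.07 FPKM in the vehicle pair and 6.87 and 6.97 FPKM in the auranofin pair, without overlap, at a limma adjusted p of 0.0897.

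Related genes of matrix turnover outside these families were read from a hand-written list, of which 31 were tested in HSCs. In that list 3 were called lower and 0 higher, beside the 1.09% and 1.24% of all genes, and 25 of 31 had lower means, beside the 47.8%, for a median log2 fold change of -0.059. They included Plau, the urokinase, and Pcolce, the enhancer of procollagen C-proteinase. Plau was at 154 and 153 FPKM in the vehicle libraries against 126 and 132 FPKM in the auranofin libraries. Pcolce was at 114 and 111 FPKM without and 95.6 and 96.4 FPKM with auranofin. Bmp1, the procollagen C-proteinase itself, was at 76.6 to 80.7 FPKM in the 4 libraries.

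Cell type markers moved beside these falls. The 14 stellate markers summed to 4492 and 4626 FPKM with vehicle and to 3905 and 4011 FPKM with auranofin, with a median log2 fold change of -0.15. By limma 1 of them, Acta2, was called lower, beside 1.09% of all genes tested. At an unadjusted p under 0.05 by limma, 7 were lower and 0 higher, against 9.22% and 8.57% of all genes. Lower means were found for 12 of the 14, beside 47.8% of all genes. The endothelial genes Stab2 and Clec4g were called lower, 2 of the 10 endothelial markers tested, beside the 1.09% of all genes. Stab2 was at 20.7 and 21.5 FPKM in vehicle libraries, and 15.9 and 16.3 FPKM after auranofin, while the other 8 endothelial markers were not called. Of the 10, 6 had lower means, and Kdr and Cdh5 had log2 fold changes of 0.17 and 0.14. In bulk RNA, fewer cells of a type and less RNA per cell cannot be told apart, and the part of these marker changes in the falls of Adamts1, Adamts5, Adamts9 and Adam33 was not tested.

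In BMDM given LPS and ATP, no member passed at an adjusted p under 0.05 by limma. Of all 9232 genes tested 1 did, or 0.0108%. At an unadjusted p under 0.05, 0 of the 22 members were counted, against 49 genes or 0.531% of all, and 0 members changed by at least 1.5-fold at that p, against 0.152% of all. The median log2 fold change of the 22 members was 0.045, beside 0.089 over all genes tested, and it turned to -0.0066 with quantile normalization and to -0.048 with centring on the median. In auranofin replicate 1 the median of all genes tested lay 0.18 above the vehicle mean on the log2 scale, and in replicate 2 it lay 0.0049 above.

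Where BMDM members departed from the vehicle libraries, they did so in 1 auranofin library. On the log2(FPKM + 1) scale, Mmp13, Mmp14, Mmp25, Adamts4 and P4ha2 lay at least 1.5-fold from the vehicle mean in auranofin replicate 1 and not in replicate 2. These 5 were 22.7% of the 22 members, against the 22.9% of all genes. The reverse, a departure in replicate 2 and not in replicate 1, was seen on that scale for 0 members and for 0.292% of all genes. The nearest to it was Mmp8, a low gene whose FPKM values are given below.

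**Figure D3:**
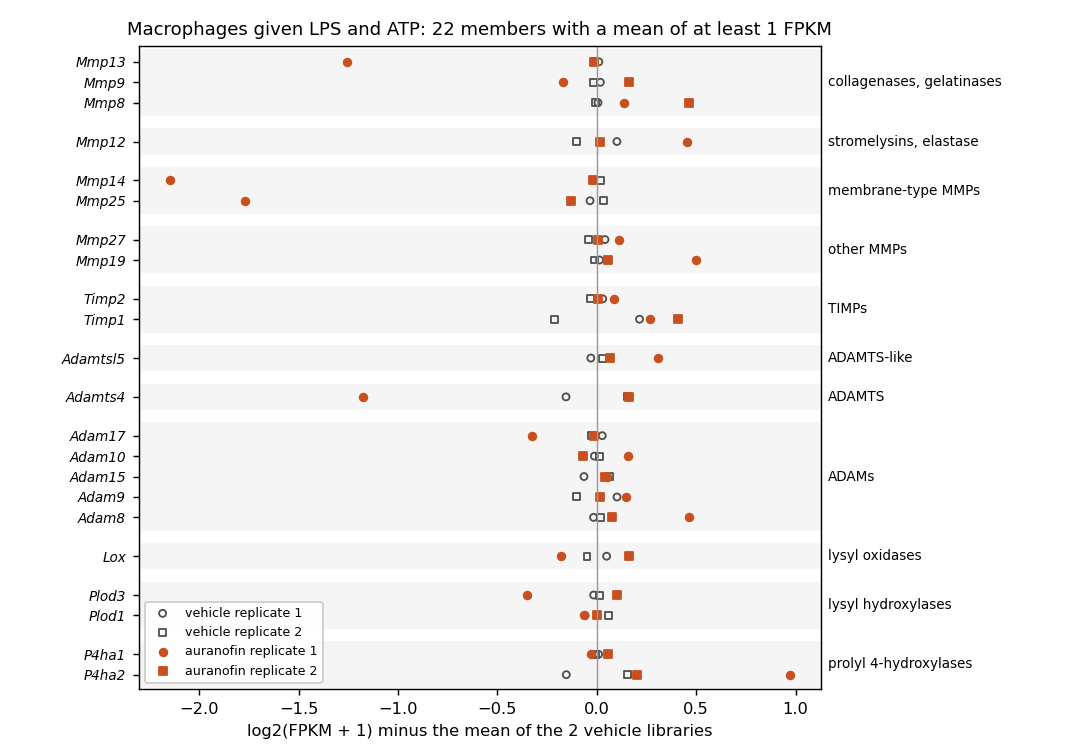
Difference of each BMDM library from the mean of the 2 vehicle libraries on the log2(FPKM + 1) scale for the 22 members tested, grouped by role, with vehicle libraries open and auranofin libraries filled. Auranofin replicate 1 alone lies far to the left for Mmp14, Mmp25, Mmp13 and Adamts4 and far to the right for P4ha2.

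Mmp13 was the most abundant member in BMDM. It was at 671 and 661 FPKM with vehicle, at 278 FPKM in auranofin replicate 1 and at 659 FPKM in replicate 2. Replicate 2 was within 1.5-fold of both vehicle libraries, and the 4 values rested on an estimated 26000 or more fragments each, for a counting error of at most 0.62%. Mmp14 was at 112 and 115 FPKM in the vehicle pair and 24.8 and 112 FPKM in the auranofin pair. Mmp25, a membrane-anchored leukocyte MMP, was at 11.97 and 12.60 FPKM in the vehicle libraries against 2.89 and 11.1 FPKM in the auranofin libraries. The log2 fold changes of -0.64, -1.08 and -0.95 for Mmp13, Mmp14 and Mmp25 had a limma adjusted p of 0.721 each. For Mmp14 the 95% interval ran from -3.20 to 1.03.

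The promoters of Mmp14 and Mmp25 are shown beside that of Mmp13 because these 3 MMP genes were low together in the same library. The windows are chr14:54431348-54431597 on the plus strand and chr17:23645270-23645519 on the minus strand (RefSeq, GRCm38.p6), and neither motif searched was in them.
Mmp14: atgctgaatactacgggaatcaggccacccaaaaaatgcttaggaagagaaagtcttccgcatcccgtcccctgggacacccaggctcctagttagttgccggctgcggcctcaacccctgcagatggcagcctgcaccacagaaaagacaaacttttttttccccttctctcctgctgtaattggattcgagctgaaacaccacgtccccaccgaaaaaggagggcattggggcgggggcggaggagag
Mmp25: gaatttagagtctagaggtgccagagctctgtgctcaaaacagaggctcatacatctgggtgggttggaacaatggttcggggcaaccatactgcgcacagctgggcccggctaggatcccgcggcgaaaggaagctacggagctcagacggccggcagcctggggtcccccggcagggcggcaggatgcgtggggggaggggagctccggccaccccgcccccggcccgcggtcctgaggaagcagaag

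Adamts4, another aggrecanase, was at 11.2 and 14.1 FPKM without and 5.01 and 14.2 FPKM with auranofin. P4ha2 was higher in that library, at 2.55 and 3.39 FPKM in vehicle libraries, and 6.74 and 3.54 FPKM after auranofin. Both had a limma adjusted p of 0.721. Without auranofin replicate 2, 11 of the 22 members were called by limma, as were 5997 of all 9232 genes, and without auranofin replicate 1, 0 members and 13 genes were.

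**Figure D4:**
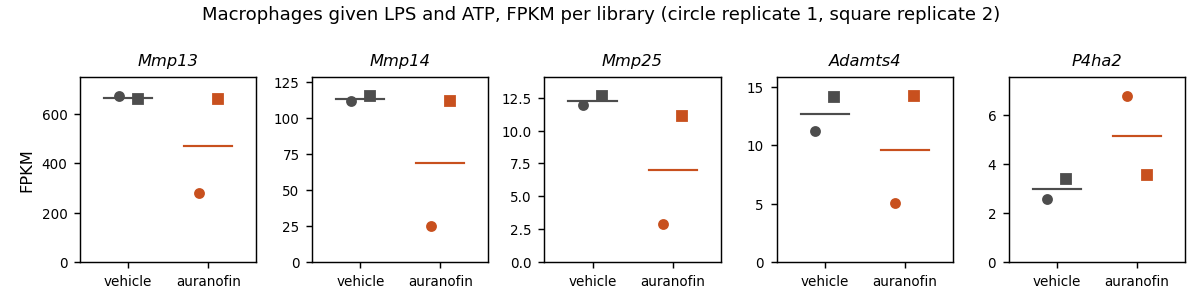
FPKM per BMDM library of the 5 members that departed in auranofin replicate 1, with replicate 1 as circles, replicate 2 as squares and a line at the mean of each group. For Mmp13, Mmp14 and Mmp25 auranofin replicate 2 lies close to the vehicle libraries and replicate 1 far below.

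Further BMDM members showed the same library apart to a smaller degree or not at all. Adam8 was at 474 and 485 FPKM in the vehicle pair and 660 and 505 FPKM in the auranofin pair. Mmp12 was at 115 and 99.6 FPKM in the vehicle libraries against 147 and 108 FPKM in the auranofin libraries. Timp1, low in these cells, was at 4.71 and 3.24 FPKM without and 4.91 and 5.54 FPKM with auranofin. Timp2, the most abundant inhibitor, was at 50.35 to 54.56 FPKM in the 4 libraries. Mmp8 was at 2.36 and 2.33 FPKM in vehicle libraries, and 2.68 and 3.61 FPKM after auranofin, and the neutrophil markers summed to 175 and 185 FPKM in the vehicle pair and 239 and 253 FPKM in the auranofin pair, whose part in it was not tested. Mmp19, the member that rose in HSCs, was at 1.68 and 1.63 FPKM in the vehicle libraries against 2.75 and 1.76 FPKM in the auranofin libraries. Mmp27 was at 13.02 to 14.61 FPKM in the 4 libraries. Adam17 was at 57.1 and 54.9 FPKM in the vehicle pair and 44.4 and 55.4 FPKM in the auranofin pair. Adamtsl5 was at 4.84 and 5.08 FPKM without and 6.37 and 5.24 FPKM with auranofin. Lox was at 1.411 and 1.252 FPKM without and 1.06 and 1.61 FPKM with auranofin.

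The enzymes that act inside the cell on new collagen were also present in BMDM. Plod3 was at 76.2 and 77.9 FPKM in vehicle libraries, and 60.2 and 82.9 FPKM after auranofin, and P4ha1 at 32.8 to 34.9 FPKM in the 4 libraries. Of the related matrix turnover list, 22 genes were tested in BMDM and 0 were called. Plau was at 64.8 and 58.1 FPKM in the vehicle pair and 126 and 60.4 FPKM in the auranofin pair, again with replicate 1 apart.

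The vehicle libraries of the 2 cell types are given side by side without a test, because the tables were normalized separately and the cultures differ. The level at which a gene was tested was met in HSCs only by 30 members and in BMDM only by 1, Mmp25. Loxl2 was at 184 and 184 FPKM in HSCs and at 0.485 and 0.256 FPKM in BMDM. Timp3 was at 270 and 286 FPKM in HSCs and at 0.253 and 0.233 FPKM in BMDM, and Timp1 was at 254 and 240 FPKM in HSCs and at 4.71 and 3.24 FPKM in BMDM. The 4 members that fell in HSCs were low in BMDM, with Adamts1, Adamts5 and Adamts9 under 0.2 FPKM and Adam33 at 1.196 and 1.04 FPKM.

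Some members had higher values in the macrophage table. Mmp13 was at 33.4 and 35.6 FPKM in HSCs and at 671 and 661 FPKM in BMDM. Adam8 was at 133 and 152 FPKM in HSCs and at 474 and 485 FPKM in BMDM, and Mmp25 at 0.0435 and 0.0240 FPKM in HSCs and 11.97 and 12.60 FPKM in BMDM. Mmp14 was high in both, at 169 and 165 FPKM in HSCs and 112 and 115 FPKM in BMDM. Mmp12 was at 901 and 881 FPKM in the HSC libraries and at 115 and 99.6 FPKM in BMDM. The macrophage markers summed to similar values in both tables, but single markers differed in both directions. Adgre1 was at 106 and 111 FPKM in HSCs and at 400 and 418 FPKM in BMDM. In contrast, Cd5l was at 1474 and 1499 FPKM in HSCs and at 111 and 108 FPKM in BMDM.

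**Figure D5:**
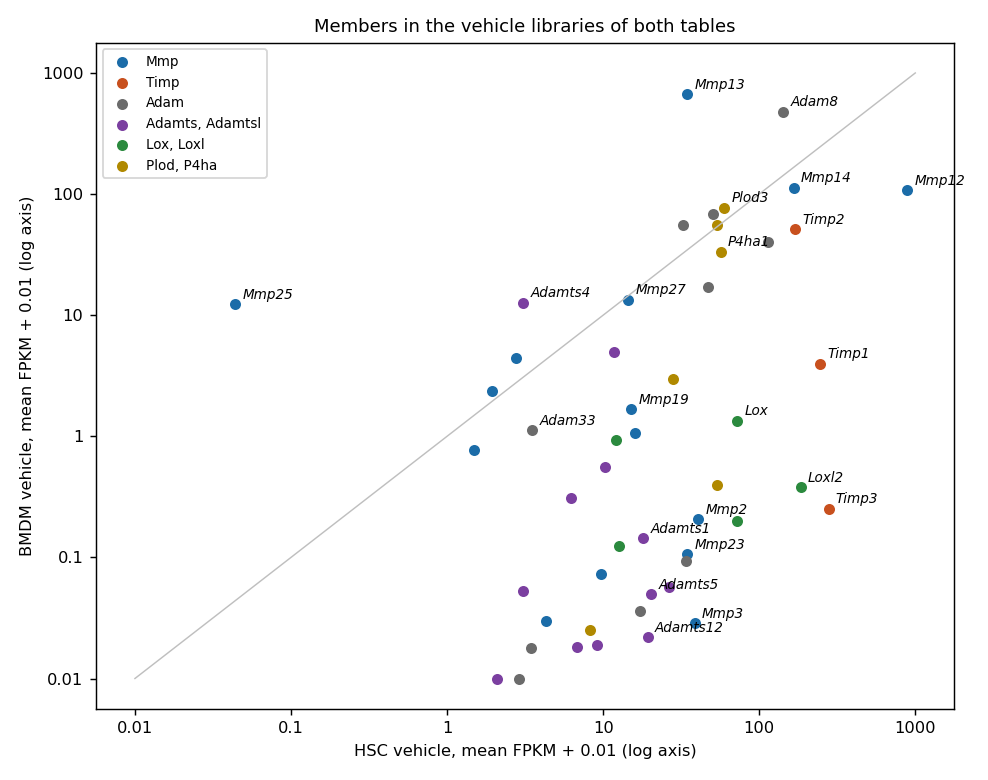
Mean FPKM of the 2 vehicle libraries in HSCs (horizontal) and in BMDM (vertical), both on log axes after adding 0.01 FPKM, for the 51 members listed in both tables and tested in at least 1, with a line where both are equal. Mmp13, Adam8, Adamts4 and Mmp25 lie above the line, and Loxl2, Timp3, Timp1 and most Adamts genes lie far below it.

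Of the members below 1 FPKM, 35 were in the HSC table and 59 in the BMDM table, and no change is given for them. They include the testis-type ADAMs, such as Adam2 and Adam3, and in BMDM the fibroblast-type genes Mmp2, Mmp3, Loxl1 and Plod2.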

How the data were processed

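FPKM is the unit of both tables that the authors deposited, 1 for HSCs and 1 for BMDM, with a value per gene and library on mm10 with RefSeq transcripts. Libraries were made with a stranded mRNA kit. The submitters' processing notes name CASAVA, FastQC 0.11.7, Trimmomatic 0.38, HISAT2 2.1.0 and StringTie 1.3.4d, and filters and strand settings are not given in the sources used here. The 8 libraries were matched to groups by their labels.

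Values were taken as log2(FPKM + 1), so fold changes of low genes are understated. Genes whose mean reached 1 FPKM were fitted by limma 3.58.1 (lmFit, eBayes with trend) in R 4.3.3, each table alone, without a block, with Benjamini-Hochberg adjustment over all genes tested. Counts are not given, so count models were not used. The test was tried on data simulated from each table's own means and moderated spread, with known changes on the log2(FPKM + 1) scale. Noise was drawn independently for each gene and library. A shift of many genes together in 1 library, as in BMDM auranofin replicate 1, was therefore not imitated. In BMDM the test recovered 0 of 50 genes changed 1.5-fold and 14 of 50 changed 2-fold. In HSCs it recovered 49 of 50 and 50 of 50. False calls numbered 17 in HSCs and 3 in BMDM. A BMDM change of such a size could therefore go uncalled. Depth came from FPKM steps of 1 fragment in genes with 1 RefSeq transcript and its GENCODE M21 length, and covers counting error only. Coordinates of all 91 members and promoter sequences came from RefSeq on GRCm38.p6, and 55 members had a promoter window of 250 bases.

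The members, role groups, marker lists and related genes were chosen with earlier results of these data known. Named were Timp1, Mmp13, Lox, every called member, the 5 largest rises and falls in each table and the most abundant member of each role. Other members were named after their values were seen. One gene of the related list is not reported here. Alternatives were a pseudocount of 0.1, no filter, a mean of at least 5 FPKM, quantile normalization, median centring, eBayes without trend, no moderation, a replicate block, and each library left out. Figures were drawn with matplotlib 3.10.9 in Python 3.11.15.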

Additional observations from a re-analysis of the deposited data

How the results depend on the processing

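In HSCs, the 4 falls and the 1 rise became 0 and 0 without a filter on low values, and 0 and 0 without moderation. Over all genes, these 2 settings called 49 of 18645 and 0 of 12149, against 283 of 12149 in the main fit. Leaving out the filter adds genes both to the adjustment and to the fit that shares the spread over genes. The unadjusted limma p-values of the called members rose as well, for Adamts1 from 6.77e-05 to 0.000278. The rise was also lost with eBayes without trend, at 0 members, where 3 falls remained called. Of all 12149 genes, 129 were called in that setting. With the replicate number as a block there were 0 rises and 3 falls, Adamts1, Adamts5 and Adamts9, so that Mmp19 and Adam33 were lost. The block called 282 of all 12149 genes. Same-numbered libraries were not shown to be paired, since the differences between replicates correlated across genes at 0.109 in HSCs and -0.0551 in BMDM, with only 2 numbers per group. The block changed no other call among the members. Leaving out 1 library gave 0 to 2 rises and 2 to 4 falls, in fits where the group with 1 library is assumed to vary like the other. The count of HSC members past 1.5-fold was 1 with a pseudocount of 0.1, with quantile normalization and with median centring, and 1 to 2 with a library left out. Lox in HSCs was -0.34 without vehicle replicate 2 and 0.59 without vehicle replicate 1, both called. The HSC median was -0.022 without a filter and -0.11 to -0.060 with a library left out. Timp3 was called with a mean of at least 5 FPKM and without vehicle replicate 1, and Timp3 and Mmp12 with quantile normalization, where Mmp19 was not. In BMDM the called members were 0 to 11 and those past 1.5-fold 0 to 5 with a library left out, 11 and 5 being without auranofin replicate 2. The BMDM median was 0 without a filter, 0.028 at 5 FPKM, -0.0066 with quantile normalization, -0.048 with median centring and 0.017 to 0.068 with a library left out. The cause of these changes was not tested, other than by the settings' own construction. Counting error from the estimated depth was at most 2.91% for Adamts1, Adamts5 and Adamts9 in any HSC library.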
